A study of Homo sapiens with 21 samples.

Results

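Of 73564 regions of the genome covered by an S9.6 peak in at least 1 library, 537 carried a peak in all 4 libraries of RNF8-depleted cells and in neither library of control cells. These 537 regions, called only-shRNF8 regions here, were chosen by the peak calls themselves. The pattern of calls across the 6 S9.6 libraries is therefore what selected them and is not a result. An R-loop is a stretch where newly made RNA pairs again with its DNA template and displaces the other DNA strand. R-loops form at gene starts, along GC-rich transcribed sequence and behind polymerases that pause at gene ends, and they are removed by RNase H enzymes, by helicases and by the exonuclease XRN2, which degrades the RNA left on the polymerase after cleavage at the gene end. RNF8 is a ubiquitin ligase of the response to DNA double-strand breaks. By its title, the study asks how ubiquitin placed on XRN2 by RNF8 bears on R-loops in cells with mutant BRCA1.

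The cells were MDA-MB-436, an established human breast cancer line with a mutated BRCA1 gene, which both groups share. In the shRNF8 group a lentiviral hairpin against RNF8 was induced with doxycycline, and in the shScr group a control hairpin was used in the same way. The labels name 1 hairpin per group and no rescue, and whether the libraries of each group are from different cultures is not said. The p-values therefore measure the spread of these libraries alone, which may be technical. DNA-RNA hybrids were pulled down from sonicated chromatin with the S9.6 antibody in 4 shRNF8 and 2 shScr libraries. A matching RNase-treated library exists for each, and polyadenylated RNA was sequenced in 3 shRNF8 and 3 shScr libraries.

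On chromosomes 1 to 22 and X, the peak lists held 32358 to 50963 peaks in shRNF8, against 38659 and 49277 in shScr. Their lowest local background, which moves with depth, was 0.698 and 0.948 reads in shRNF8 replicates 1 and 2, 1.36 and 1.48 in shRNF8 replicates 3 and 4, and 1.22 and 0.840 in shScr replicates 1 and 2. The total read depth is unknown. RNF8 RNA averaged 9.09 ± 1.05 CPM in shRNF8 cells and 28.7 ± 0.585 CPM in shScr cells (SD, n = 3 each), 3.15-fold lower, with an adjusted p of 0.000165 (edgeR quasi-likelihood test, Benjamini-Hochberg). The RNA libraries had high VIM and CD44, which mark mesenchymal breast lines, at 563 to 1134 CPM in shRNF8 and 562 to 1045 CPM in shScr. The basal keratin KRT5, the T-cell gene CD3E and the endothelial gene CDH5 were at 0 in all 6, and the hormone receptor genes ESR1 and PGR were at or near 0. Other luminal genes were mixed. KRT8 was at 682 to 695 CPM in shRNF8 and 504 to 861 CPM in shScr. KRT18 was at 323 to 347 CPM in shRNF8 and 311 to 491 CPM in shScr. ERBB2 was at 47.8 to 60.1 CPM in shRNF8 and 49.9 to 63.2 CPM in shScr. GATA3 was low, at 1.05 to 1.34 CPM in shRNF8 and 1.15 to 1.43 CPM in shScr. FOXA1 was at 3.26 to 4.46 CPM in shRNF8 and 4.19 to 5.10 CPM in shScr. Basal genes were mixed too. EGFR was at 98.6 to 147 CPM in shRNF8 and 124 to 186 CPM in shScr. SPARC was at 16.6 to 20.4 CPM in shRNF8 and 14.6 to 24.1 CPM in shScr, and KRT14 was at or near 0. Summed, the basal list was at 1800 to 1898 CPM in shRNF8 and 1752 to 1808 CPM in shScr, and the luminal list at 1068 to 1094 CPM in shRNF8 and 879 to 1409 CPM in shScr. The part of these levels in the results was not tested.

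The sequences below are the promoter windows of 6 genes whose window lies wholly inside an only-shRNF8 region. They are shown because gene starts are where the letters of a region could be read, and they show the G runs and the GC content there. Most of each window lies before the gene start, and the peaks carry no strand. HIGD1A, PSMD3 and POLR1D stand at the highest regions of their class. MAGEF1, ZNHIT6 and PLK1 are the next protein-coding genes by fold whose window holds the summit of the region. The HIGD1A and POLR1D windows hold the summit of their region, and the PSMD3 window does not, as that summit is at chr17:39981304. Each window covers 250 bases before to 50 after the gene start, 5′ to 3′ on the strand of the gene, from RefSeq on GRCh38.p14, and capitals mark runs of at least 4 G.
HIGD1A, chr3:42804441-42804740, minus strand: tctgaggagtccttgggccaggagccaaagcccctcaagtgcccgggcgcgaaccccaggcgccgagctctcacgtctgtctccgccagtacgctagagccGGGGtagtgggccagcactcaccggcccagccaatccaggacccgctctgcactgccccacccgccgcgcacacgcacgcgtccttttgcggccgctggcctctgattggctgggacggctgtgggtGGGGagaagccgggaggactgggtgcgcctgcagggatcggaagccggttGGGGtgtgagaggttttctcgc
POLR1D, chr13:27621642-27621941, plus strand: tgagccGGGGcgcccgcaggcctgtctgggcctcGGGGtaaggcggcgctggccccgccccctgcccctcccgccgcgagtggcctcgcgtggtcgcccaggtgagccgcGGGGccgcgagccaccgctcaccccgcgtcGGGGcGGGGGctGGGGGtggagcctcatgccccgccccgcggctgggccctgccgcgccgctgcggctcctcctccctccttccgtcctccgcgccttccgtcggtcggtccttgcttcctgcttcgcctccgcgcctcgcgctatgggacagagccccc
PSMD3, chr17:39980557-39980856, plus strand: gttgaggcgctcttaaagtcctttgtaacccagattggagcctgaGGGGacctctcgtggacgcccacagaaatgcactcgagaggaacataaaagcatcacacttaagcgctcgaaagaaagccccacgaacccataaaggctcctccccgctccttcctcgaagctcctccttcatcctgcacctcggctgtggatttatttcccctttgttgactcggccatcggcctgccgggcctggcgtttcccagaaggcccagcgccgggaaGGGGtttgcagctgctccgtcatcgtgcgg
MAGEF1, chr3:184712015-184712314, minus strand: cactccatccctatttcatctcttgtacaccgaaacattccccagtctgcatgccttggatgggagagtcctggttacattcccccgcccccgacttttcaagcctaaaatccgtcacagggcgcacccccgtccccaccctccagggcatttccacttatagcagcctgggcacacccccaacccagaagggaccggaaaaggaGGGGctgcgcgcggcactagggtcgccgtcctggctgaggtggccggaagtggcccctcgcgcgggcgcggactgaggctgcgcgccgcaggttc
ZNHIT6, chr1:85708384-85708683, minus strand: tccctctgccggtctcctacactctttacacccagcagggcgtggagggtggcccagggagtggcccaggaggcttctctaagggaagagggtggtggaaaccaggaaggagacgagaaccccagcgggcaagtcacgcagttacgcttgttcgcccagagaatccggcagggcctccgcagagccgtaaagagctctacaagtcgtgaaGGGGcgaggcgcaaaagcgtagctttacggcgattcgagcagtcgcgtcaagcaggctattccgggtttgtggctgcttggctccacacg
PLK1, chr16:23678639-23678938, plus strand: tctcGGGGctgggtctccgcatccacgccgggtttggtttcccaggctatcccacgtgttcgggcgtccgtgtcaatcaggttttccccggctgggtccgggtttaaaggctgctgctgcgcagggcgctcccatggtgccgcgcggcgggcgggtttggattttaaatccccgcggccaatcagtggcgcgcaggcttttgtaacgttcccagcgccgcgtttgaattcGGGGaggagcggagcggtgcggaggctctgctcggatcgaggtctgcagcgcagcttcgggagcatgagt
The POLR1D window held 6 such runs at 79.0% G and C, and the MAGEF1 and ZNHIT6 windows held 1 each at 63.7% and 61.0%. The HIGD1A window held 3 runs at 68.7%, and the PSMD3 and PLK1 windows held 2 each at 58.0% and 64.7%.

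In all, 117 promoter windows lay wholly inside 86 of the only-shRNF8 regions. Their median GC content was 68.0%, close to the 67.7% of 5409 windows inside regions called in all 6 libraries, against 58.7% over all 34959 promoter windows. The ratio of observed to predicted CpG had a median of 0.840, against 0.832 in the shared regions and 0.580 over all windows. A run of GGGG on the gene's strand was present in 104 of the 117 windows (88.9%), in 90.4% of windows inside shared regions and in 75.1% of all windows. On the other strand the shares were 84.6%, 87.9% and 73.7%. A G-quadruplex motif, searched on both strands as 4 runs of at least 3 G with loops of 1 to 7 bases, was present in 38 of the 117 windows (32.5%), below the 42.0% in the shared regions and above the 25.04% of all windows. The telomere-like TTAGGG, searched on both strands, was present in 13 windows (11.1%), against 7.43% in the shared regions and 9.05% of all. An unbroken run of 12 A or of 12 T was found in 0 of the 117 windows and in 0 of the 128 windows inside only-shScr regions. It was in 0.813% of windows inside shared regions and in 1.96% of all windows. In 128 windows inside only-shScr regions, the median GC content was 65.5% and the median CpG ratio 0.840. There, GGGG on the gene's strand was present in 83.6% of windows, a quadruplex motif in 26.6% and TTAGGG in 7.03%. These motifs overlap, since a quadruplex motif may hold a GGGG run. These shares describe windows that are not independent of each other, because divergent genes share a window's sequence, and they carry no test.

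The only-shRNF8 regions were narrower and lower than the 8016 regions called in all 6 libraries, and lay between the sets just outside the rule in both. Width and fold come from the same peak calls that define these sets, and merging more peaks widens a region. This order therefore goes with the rule and is not a result about the regions. Their median width was 1666 bp (357 to 8095), against 4770 bp for those shared regions. It was 632 bp for the only-shScr regions, 1130 bp for regions called in 3 shRNF8 libraries and no shScr library, and 2068 bp for those called in 4 shRNF8 libraries and 1 shScr library. The median of the mean fold was 5.21, against 7.39 in the shared regions, 4.82 in the regions of 3 shRNF8 libraries and 5.44 in those of 4 shRNF8 libraries and 1 shScr library. The highest peak fold over local background, the authors' own value per peak, had a median over the 537 regions of 5.61, 4.84, 5.17 and 4.77 in shRNF8 replicates 1 to 4. The same medians in the shared regions were 7.84, 6.67, 7.82 and 6.95. The reads piled up at the summit had medians of 11, 11, 16 and 15 in the only-shRNF8 regions, against 18, 18, 26 and 24 in the shared regions. The mean fold of a region over the 4 libraries ran from 3.36 to 10.7, and its coefficient of variation over the 4 libraries had a median of 20.5% (2.03% to 72.3%). The highest value came from replicate 1 in 250 regions (46.6%), from replicate 3 in 143, from replicate 2 in 83 and from replicate 4 in 61.

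No shScr value exists where no peak was called, so signal below the caller's threshold in shScr cells is not known. Where the local background was at its lowest, the smallest fold called was 3.60 in shScr replicate 1 and 3.79 in shScr replicate 2. In the shRNF8 libraries it was 3.22 to 3.59, below both shScr values. Where the local background is higher the limit is not the same, and folds of the 537 regions went down to 2.47 in shRNF8 replicate 4. The part of these limits in the absence of shScr calls was not tested. In 380 regions (70.8%) the peaks of all 4 shRNF8 libraries shared a common stretch, with a median of 270 bp. In the other 157 the peaks were joined only through each other. The median of the mean fold was 5.37 in the 380 and 4.85 in the 157.

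The highest region lay in an intron of ATAD3A, which encodes an ATPase of the mitochondrial inner membrane, at chr1:1519707-1520190 (build hg38, as all coordinates here). Its fold was 15.3, 11.3, 9.74 and 6.46 in shRNF8 replicates 1 to 4 (mean 10.7 ± 3.68, SD, n = 4). ATAD3A and its neighbour ATAD3B each carried 3 only-shRNF8 regions, all in introns. In ATAD3B, chr1:1476431-1478594, chr1:1482696-1484737 and chr1:1487084-1489015 had mean folds of 6.13, 6.23 and 6.50. In ATAD3A, chr1:1516216-1517339 and chr1:1520629-1522237 had mean folds of 8.12 and 7.46. The genes are near-identical copies, and how reads that match both were placed is not given in the sources used here, so the place of these regions is uncertain.

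The next was the start of HIGD1A, which encodes a small protein of mitochondrial respiratory complexes, at chr3:42802892-42805791, with its summit 78 bp upstream of the start. Its fold was 17.5, 6.70, 8.89 and 7.81 in shRNF8 replicates 1 to 4 (mean 10.2 ± 4.96), so replicate 1 stood well above replicates 2, 3 and 4. It was also among the most isolated of the regions named, with the nearest shScr peak 123974 bp away. HIGD1A RNA was 144, 143 and 186 CPM in shRNF8, against 151, 135 and 131 CPM in shScr. The groups overlapped, and the log2 fold change of 0.18 had an adjusted p of 0.403 (edgeR).

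Replicate 1 was also the highest library at GLYCTK, TOMM34, TMCO3, POLR1D and FAM98A. The region at the end of GLYCTK, the gene of glycerate kinase (chr3:52294712-52301809), had folds of 13.4, 9.21, 6.96 and 8.11 in replicates 1 to 4. The intron region of TOMM34, a co-chaperone of mitochondrial protein import (chr20:44952405-44954977), had 17.1, 9.75, 5.08 and 5.65. The intron region of TMCO3, a membrane protein gene (chr13:113512870-113514107), had 14.7, 8.24, 5.63 and 6.17. At each of these regions replicate 1 stood clear of the rest. The region over the first part of POLR1D, whose product is a subunit shared by RNA polymerases I and III (chr13:27621354-27624442), had 12.9, 4.73, 5.60 and 6.46, and the nearest shScr peak was 186135 bp away. It is classed as exon because its summit lay 1076 bp from the gene start of the count table. The same summit lies inside the RefSeq promoter window shown above, so the 2 annotations place it differently. The exon region of FAM98A (chr2:33584711-33585982) had 12.95, 6.67, 5.51 and 4.03.

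At the other high regions the order of the libraries differed. The intron region of RABL6, which encodes a RAB-like GTPase (chr9:136814682-136818095), had 5.58, 5.60, 11.6 and 12.4 in replicates 1 to 4, the reverse of the ATAD3A order. The intron region of RNF215, a RING finger gene (chr22:30385467-30387407), had 7.12, 9.43, 11.3 and 7.06. The region at the end of GON4L, which encodes a nuclear regulator of transcription (chr1:155747703-155748118), had 10.6, 5.65, 12.3 and 9.68 and lay 787 bp from an shScr peak. The start of PSMD3, a subunit gene of the proteasome lid (chr17:39979150-39982487), had 8.71, 5.001, 8.09 and 8.88. The 2 highest intergenic regions lay nearest to RRP7A (chr22:42520021-42523736), with 9.42, 7.70, 9.23 and 6.98, and nearest to CAPN15 (chr16:512094-515426), with 6.60, 7.19, 11.9 and 6.46. At RRP7A replicates 1 and 3 were nearly level, and its SD of 1.19 was below the 2.58 at CAPN15.

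**Figure D1:**
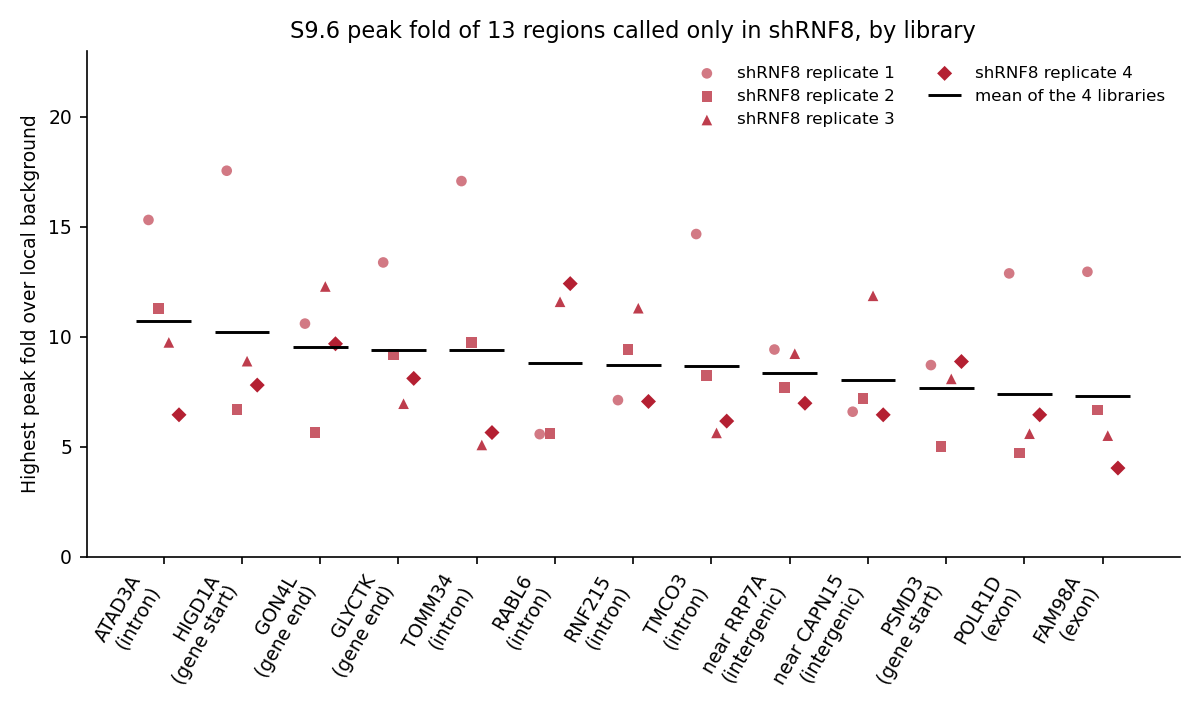
Highest S9.6 peak fold over local background (y axis) of 13 only-shRNF8 regions by gene (x axis), which are the 8 highest and the 2 highest of each position class, with 1 point per shRNF8 library and a bar at the mean. The bars lie between 7.29 and 10.7, and the highest points, 17.5 at HIGD1A and 17.1 at TOMM34, are of replicate 1.

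At the edge of the rule, the 3 lowest members had mean folds of 3.51 (intergenic, nearest to ANKRD20A11P), 3.42 (an intron of CAMK2G) and 3.36 (intergenic, nearest to NDUFS5). Just outside it, 949 regions had a peak in all 4 shRNF8 libraries and in 1 shScr library, and 1862 had a peak in 3 shRNF8 libraries and none in shScr. The 3 highest of those 949 were gene starts. The start of CSTF2T, a gene of an mRNA 3′ end cleavage factor (chr10:51695583-51700611), had folds of 18.3, 9.57, 11.3 and 7.74 in shRNF8 replicates 1 to 4 and 3.14 in shScr replicate 2. The start of ERCC4, which encodes the XPF nuclease (chr16:13919521-13921471), had 15.9, 12.1, 7.89 and 5.57 in shRNF8 and 4.73 in shScr replicate 2. The start of PHF12, a PHD finger gene (chr17:28942317-28956603), had 12.5, 6.79, 13.3 and 7.17 in shRNF8 and 5.05 in shScr replicate 1. All of them were higher than most members and were kept out by peaks of 1 shScr library.

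The same measure was read in libraries that the choice did not use. Regions were chosen on 3 shRNF8 libraries and 1 shScr library and then read in the shRNF8 and the shScr library left out, in all 8 combinations, which share libraries with each other. The share with a peak in the left-out shRNF8 library was 39.2% to 91.5%, and the share with a peak in the left-out shScr library was 26.7% to 53.8%. The shRNF8 share was the higher in 7 of 8 combinations. With shRNF8 replicate 3 and shScr replicate 1 left out, 1413 of 1545 regions (91.5%) had a peak in the left-out shRNF8 library and 831 (53.8%) in the left-out shScr library. With shRNF8 replicate 1 and shScr replicate 1 left out, the shares over 2388 regions were 54.6% in shRNF8 and 50.2% in shScr. With shRNF8 replicate 2 and shScr replicate 1 left out, they were 44.3% in shRNF8 and 44.6% in shScr over 2794 regions. With shRNF8 replicate 1 and shScr replicate 2 left out, they were 51.0% in shRNF8 and 29.0% in shScr, and with shRNF8 replicate 2 and shScr replicate 2 left out 39.2% in shRNF8 and 26.7% in shScr. In shRNF8, replicates 3 and 4 had the highest background and the most peaks. In shScr, replicate 1 had 49277 peaks and replicate 2 had 38659, and the share was higher in replicate 1. The part of depth in these shares was not tested.

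**Figure D2:**
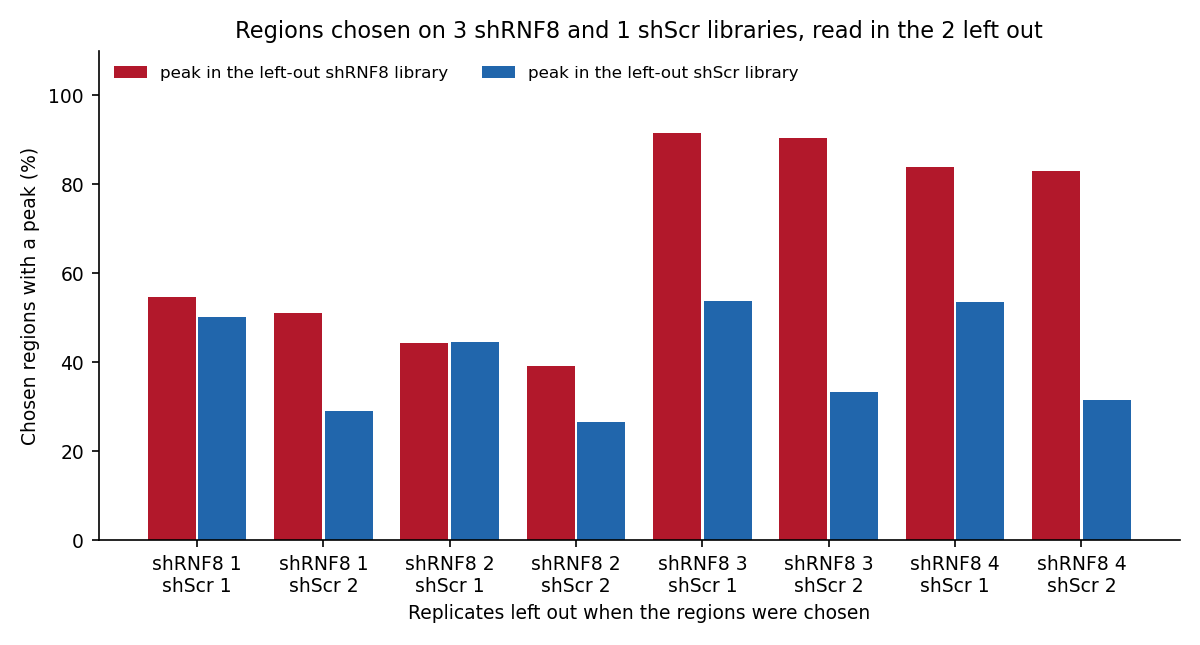
Share of regions with a peak (y axis, percent) in the left-out shRNF8 library (red) and the left-out shScr library (blue), for each pair of replicates left out when regions were chosen (x axis). The red bars reach 83.1% to 91.5% where shRNF8 replicate 3 or 4 was left out and 39.2% to 54.6% where replicate 1 or 2 was.

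The balance between the hairpins also moved with the shRNF8 libraries used. With shRNF8 replicates 1 and 2 set against the 2 shScr libraries, 1713 regions had peaks only in shRNF8 and 6334 only in shScr. With shRNF8 replicates 3 and 4 in their place, 9926 had peaks only in shRNF8 and 2802 only in shScr. Against all 4 shRNF8 libraries, 1835 regions had peaks in both shScr libraries and in no shRNF8 library. That pattern asks for 2 calls and 4 absences, and the only-shRNF8 pattern for 4 calls and 2 absences, so the counts of 537 and 1835 are not a measure of which hairpin had more R-loops. With all libraries brought to a background of 0.698 reads, 410 regions met the rule. With the shRNF8 libraries alone brought down and the shScr lists as deposited, 312 met it.

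Relative to genes, only-shRNF8 regions were mostly intronic. Of the 537, 286 (53.3%, 95% Wilson interval 49.0 to 57.4) had their highest summit in an intron, against 35.0% of the regions called in all 6 libraries and 41.3% of the only-shScr regions. Gene starts, within 1000 bp, took 100 regions (18.6%, 15.6 to 22.1), against 22.5% of shared and 12.9% of only-shScr regions. Gene ends, from 1000 bp before to 5000 bp after, took 52 (9.68%, 7.46 to 12.5), against 20.9% of shared and 16.9% of only-shScr regions. Exons took 39 (7.26%) and intergenic sequence 60 (11.2%). Intervals cover counting error only, and regions are not replicates. The neighbours of the rule lay close to it: 52.9% of regions called in 3 shRNF8 libraries and no shScr library, and 47.8% of those called in 4 shRNF8 libraries and 1 shScr library, were intronic, so a high intron share was not particular to the 537. In those neighbour sets, in the same order, gene ends took 12.6% and 11.7% and exons 7.25% and 6.32%. Low shares at gene ends and exons were therefore not particular to the 537 either. Intron summits lay a median of 19799 bp from the gene's start. Of the 100 summits at gene starts, 61 lay at or downstream of the start and 39 upstream, at a median distance of 95 bp.

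**Figure D3:**
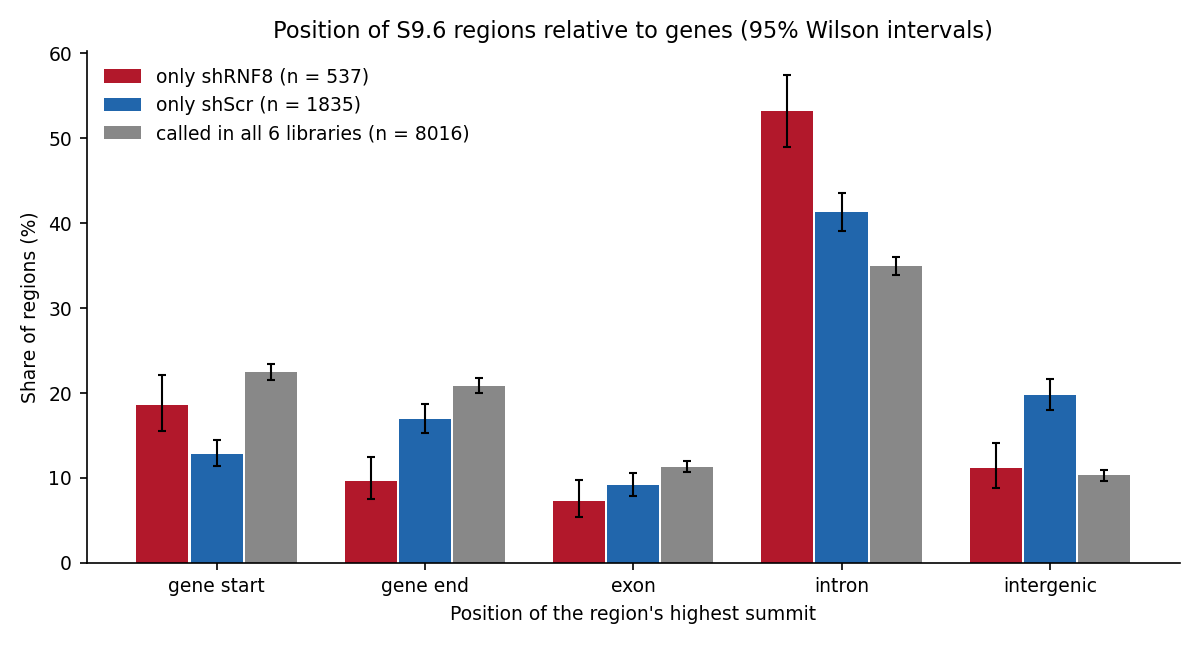
Share of regions (y axis, percent, with 95% Wilson intervals) by position of the highest summit (x axis) for only-shRNF8, only-shScr and shared regions. Among the 3 sets the only-shRNF8 bar is the tallest at introns, 53.3%, and the lowest at gene ends, 9.68%, and exons, 7.26%. The sets just outside the rule, not drawn, had exon shares of 7.25% and 6.32% and gene end shares of 12.6% and 11.7%.

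Most only-shRNF8 regions lay close to an S9.6 peak of the control cells. The nearest shScr peak was a median of 1893 bp away, and only-shScr regions lay a median of 1929 bp from the nearest shRNF8 peak. It was within 1000 bp for 175 regions (32.6%), within 5000 bp for 382 (71.1%) and beyond 50000 bp for 39 (7.26%). The nearest region called in all 6 libraries was a median of 7853 bp away, against 41384 bp for the only-shScr regions. Another only-shRNF8 region lay within 100 kb for 188 of the 537 (35.0%).

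Of the regions, 477 were assigned to 423 genes, of which 377 carried 1, 38 carried 2 and 8 carried at least 3. Those 8 were ATAD3A, ATAD3B, SORCS2 (a sortilin family receptor), RGS12 (a regulator of G protein signalling), MAD1L1 (a spindle checkpoint protein), TEX264 (an autophagy receptor of the endoplasmic reticulum), RAB40C (a RAB GTPase) and COL18A1 (a collagen chain). Mean folds ran from 3.86 to 4.49 over the SORCS2 regions and from 5.38 to 6.58 over those of TEX264. A region called in all 6 libraries was present at 239 of the 423 genes (56.5%), and an shScr peak summit at 352 (83.2%), which left 71 genes with none. Over the genes the median length was 44.8 kb and the median level 14.4 CPM per kb of transcript among the 391 tested, against 28.0 kb and 7.21 CPM per kb over all genes tested. Genes with an only-shScr region had a similar median length, 46.2 kb, at 11.2 CPM per kb, and genes with a shared region had 23.5 kb and 15.1 CPM per kb. Median gene length was 52.0 kb for the genes with an intron region and 29.1 kb for those with a region at the gene start.

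RNase-treated libraries were not used to choose the regions. The labels name the RNase only by a code, so its kind is not given here. A peak was present in 0, 2, 6 and 2 of the 537 regions in RNase-treated shRNF8 replicates 1 to 4, against 3 and 4 in RNase-treated shScr replicates 1 and 2. These treated lists differed in size, with 254, 419, 1912 and 692 peaks in shRNF8 and 731 and 997 in shScr. The 0 came from the shortest list and the 6 from the longest. The part of list size in the shares below was not tested. The count of 0 allows a share of up to 0.559% by a limit of 3 counts, and its 95% Wilson interval ends at 0.7103%. The mean share was 0.466% ± 0.469 in shRNF8 (SD, n = 4) and 0.652% ± 0.132 in shScr (SD, n = 2), a difference of -0.19 percentage points with p = 0.667 in a two-sided exact permutation test, in a design whose smallest p is 0.0667. Over all 6 treated libraries 10 of the 537 regions (1.86%) had a peak, where 1.61% of all merged regions did, so the share was near that background. The share was 4.63% in the regions called in all 6 untreated libraries, which are wider.

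The region kept in most treated libraries was intergenic, 49448 bp from the start of SNX9 (chr6:157772799-157775205), with a peak in 5 of the 6: 3 of 4 shRNF8 and both shScr. Its folds before treatment were 8.05, 9.09, 3.72 and 4.89 in shRNF8 replicates 1 to 4. Of the other 9, 7 had a peak in 1 treated library, among them the ends of UCN2, the gene of the peptide urocortin 2, and of SSPO, and an intron of SORCS2.

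**Figure D4:**
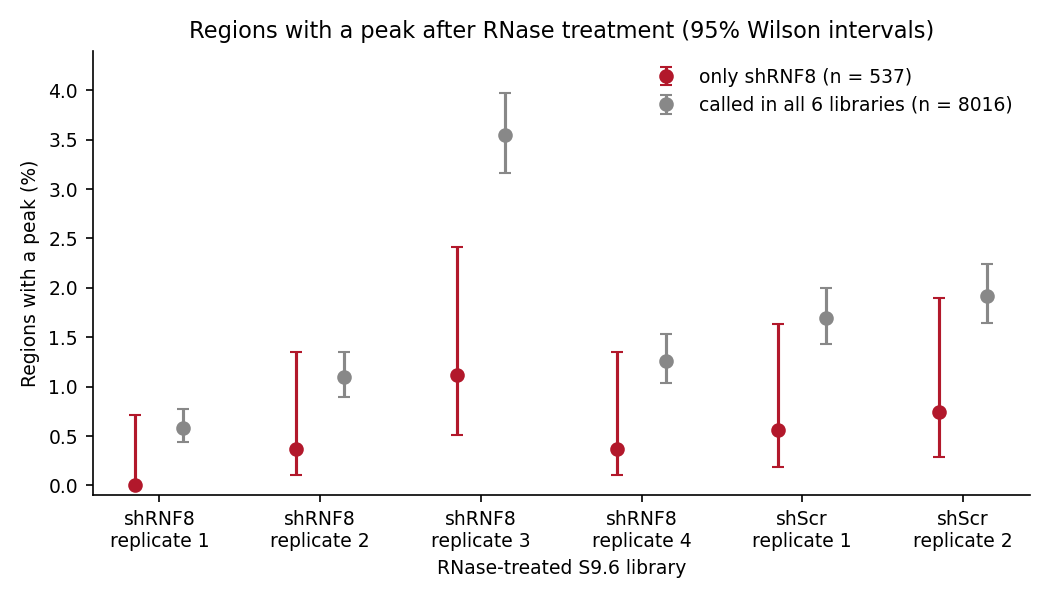
Share of regions with a peak (y axis, percent, with 95% Wilson intervals) in each RNase-treated library (x axis), for the 537 only-shRNF8 regions (red) and the 8016 shared regions (grey). The red points lie between 0 and 1.12% and below the grey point in every library.

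The RNA of the genes that carry these regions was called changed about as often as that of all genes tested. Of 423 genes, 391 passed the count filter, and 1 was called higher and 10 lower in shRNF8 at an adjusted p under 0.05 (edgeR), 2.81% together. Over all 14018 genes tested, 0.970% were called higher and 1.57% lower, 2.54% together, so the share was near the background. The median log2 fold change was -0.012 over the 391 genes and -0.0048 over all genes tested. The RNA groups did not overlap for 91 of the 391 (23.3%), where 25.3% of all genes tested had no overlap. Among the 87 tested genes with a region at the gene start 0 were called higher and 2 lower (edgeR, adjusted p under 0.05; 6 and 10 at an unadjusted p under 0.05; DESeq2 called 0 and 4), and among the 244 with an intron region 1 and 7. In bulk RNA, fewer cells of a kind and less RNA per cell cannot be told apart. shScr RNA replicate 1 lay at -14.7 on the first principal component, among the shRNF8 libraries at -23.4 to -10.7, while shScr replicates 2 and 3 lay at 31.2 and 30.4. Without it, 51 of the 391 genes were called higher and 65 lower (29.7%), where 27.1% of all genes tested were called.

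PLCD3, which encodes a phospholipase C and carries an intron region (chr17:45125329-45126027, folds 3.53, 5.65, 5.50 and 4.03), had 76.5, 78.1 and 65.9 CPM in shRNF8, against 214, 196 and 193 CPM in shScr. The groups stood far apart, and the log2 fold change was -1.45 with an SE of 0.097 and an adjusted p of 0.000111 (edgeR), 2.73-fold lower in shRNF8. ZNF664, a zinc finger gene with an intron region (chr12:124001621-124003117, folds 3.74, 3.48, 5.71 and 4.10), had 67.3, 67.0 and 72.4 CPM in shRNF8, against 162, 163 and 154 CPM in shScr. It was 2.31-fold lower with an adjusted p of 0.000111 (edgeR). Both regions were below the median height of the 537, and both genes kept their call under each of the 11 alternative fits tried.

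DCBLD2, which encodes a neuropilin-like membrane receptor, was the gene called higher. It had 1599, 1614 and 1592 CPM in shRNF8, against 926, 1146 and 1076 CPM in shScr, 1.53-fold higher with an adjusted p of 0.00978 (edgeR). Its intron region (chr3:98857330-98859057) had folds of 3.80, 5.25, 8.23 and 8.71 in shRNF8 replicates 1 to 4. The call was lost without shRNF8 RNA replicate 1, 2 or 3, with adjusted p-values up to 0.0805 (edgeR). Those fits called 0.322% to 0.470% of all genes tested, against 2.54% with all libraries, so lost calls were common among all genes.

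The other 8 genes called lower were EI24 (an endoplasmic reticulum protein), FAM53B, the kinase genes CAMK2G and WNK2, CARD10 (a scaffold of NF-kB signalling), TNS3 (a focal adhesion protein), PIK3CD (a catalytic subunit of phosphoinositide 3-kinase) and RABL6. They were 1.33-fold to 1.69-fold lower, and the groups did not overlap for any of them. Each lost its call in at least 3 of the 6 fits that left out 1 library, with adjusted p-values up to 0.203 (edgeR). All but the fit without shScr replicate 1 called only 0.322% to 0.928% of all genes tested, so such losses are not particular to these genes. EI24, with a region at its start (chr11:125568771-125570165, mean fold 4.73 ± 1.45), had 53.2, 56.6 and 55.6 CPM in shRNF8, against 113, 81.1 and 85.2 CPM in shScr. PIK3CD, with a region at its start (chr1:9651396-9652547, mean fold 4.99 ± 1.49), had 110, 111 and 93.0 CPM in shRNF8, against 131, 162 and 167 CPM in shScr. RABL6, at one of the highest regions, had 190, 174 and 156 CPM in shRNF8, against 230, 222 and 239 CPM in shScr. ATAD3A, at the highest region, had 125, 126 and 122 CPM in shRNF8, against 152, 98.5 and 109 CPM in shScr, and its adjusted p was 0.860, or 0.0239 without shScr RNA replicate 1 at a log2 fold change of 0.26 (edgeR).

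**Figure D5:**
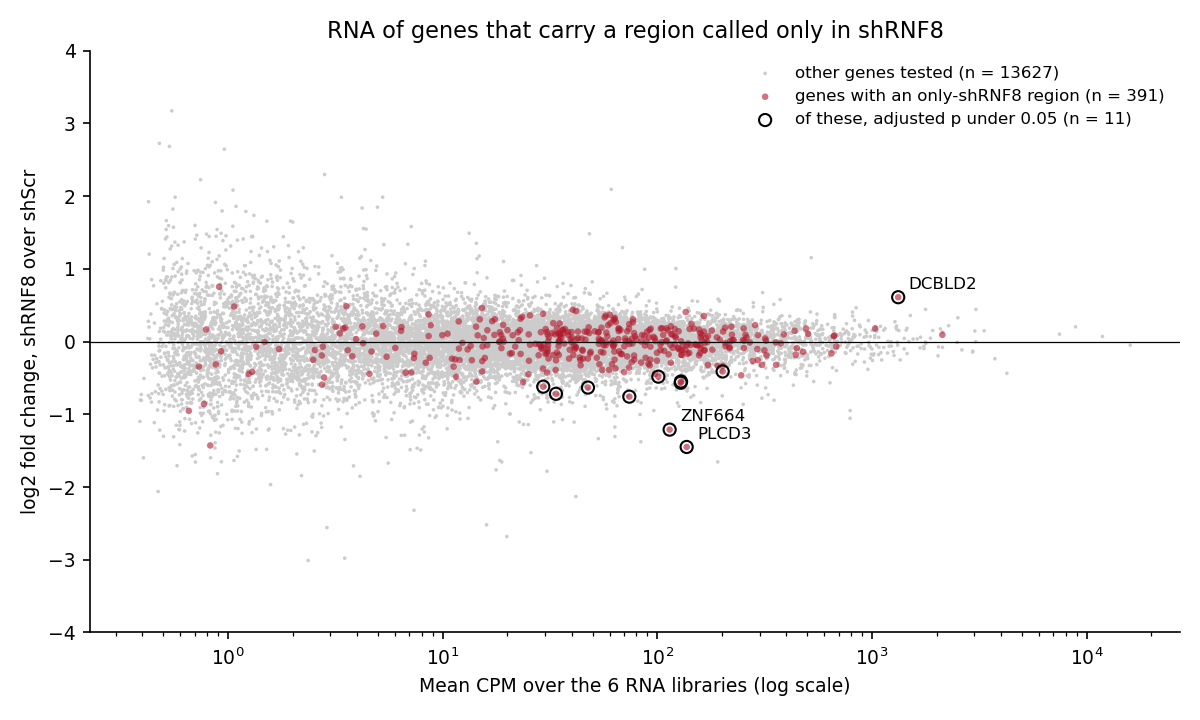
log2 fold change of RNA, shRNF8 over shScr (y axis), against mean CPM (x axis, log scale), for the 391 tested genes with an only-shRNF8 region (red) and the other genes tested (grey), with circles at an adjusted p under 0.05. The red points lie across the grey cloud, with PLCD3 and ZNF664 the lowest of the 11 circled genes and DCBLD2 the circled gene above 0.

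An only-shRNF8 region was assigned to 423 of 24983 gene loci (1.69%), so a list of these sizes would hold about 1 such gene or none, and the counts below say nothing particular of the lists. Of 24 genes of RNF8 break signalling, 1 carried one. It was UIMC1, named here after its values were seen, whose product RAP80 binds the ubiquitin chains that RNF8 starts. Its intron region (chr5:176981954-176983303) had folds of 8.28, 4.84, 6.78 and 8.07 in shRNF8 replicates 1 to 4. UIMC1 RNA was 77.8, 84.8 and 80.8 CPM in shRNF8, against 76.8, 73.6 and 73.9 CPM in shScr, with an adjusted p of 0.468 (edgeR). Of 36 genes of R-loop resolution, 34 of transcription termination, 25 at common fragile sites and 13 often used as DRIP controls, 0 carried an only-shRNF8 region, while regions called in all 6 libraries numbered 20, 15, 0 and 9 at these lists.

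In RNA, 0 of 22 tested break signalling genes were called higher and 1, RNF8 itself, lower (edgeR, adjusted p under 0.05). DESeq2 also called 0 higher and RNF8 alone lower. At an unadjusted p under 0.05 (edgeR) there was 1 each way. Of 35 tested genes of R-loop resolution 1 was called higher, the dNTP hydrolase gene SAMHD1, at 42.9 ± 2.27 CPM in shRNF8 and 30.8 ± 0.756 CPM in shScr (SD, n = 3 each, edgeR), and 0 lower, with 5 each way at an unadjusted p under 0.05 and 1 higher and 2 lower by DESeq2. The SAMHD1 call was lost in 5 of the 6 fits that left out 1 RNA library, with adjusted p-values up to 0.1495 (edgeR). Those 5 fits called 0.322% to 0.928% of all genes tested. Of 33 termination genes and 11 control genes 0 were called in either direction (edgeR), with 2 and 3 at an unadjusted p under 0.05, and DESeq2 called 0 termination genes and 1 control gene. XRN2 had 154, 159 and 169 CPM in shRNF8, against 169, 138 and 126 CPM in shScr, and its adjusted p was 0.468, or 0.0165 without shScr RNA replicate 1 at a log2 fold change of 0.28 (edgeR). Of 15 tested fragile site genes 1 was called higher, the neurexin family gene CNTNAP2, at 7.79 ± 0.897 CPM in shRNF8 and 2.16 ± 0.312 CPM in shScr (SD, n = 3 each, edgeR). None was called lower, and DESeq2 called the same gene alone. At an unadjusted p under 0.05 (edgeR), 3 fragile site genes were higher and 4 lower. Over all 14018 genes tested, 2813 had an unadjusted p under 0.05 and 2.54% were called at an adjusted p under 0.05 (edgeR). Some calls appeared under other fits. The nucleolar helicase gene DDX21 and the control gene MYADM, each named after its values were seen, had adjusted p-values of 0.0631 and 0.0650 (edgeR) and were called lower in 4 of the 11 alternative fits each: DESeq2, no count filter, the replicate block and the fit without shScr RNA replicate 1. SUPT16H, which encodes a subunit of the histone chaperone FACT, had an adjusted p of 0.0995 (edgeR) and was called lower in 3 of them. Without shScr RNA replicate 1, 12 genes of R-loop resolution and 5 of termination were called higher, and 3 and 0 lower. In the same fit 5 break signalling, 4 fragile site and 2 control genes were called higher, and 3, 6 and 3 lower. That fit called 27.1% of all genes tested, so these counts are not particular to any list. Median log2 fold changes of the 5 lists lay between -0.05 and 0.12.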

How the data were processed

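MDA-MB-436 cells with shRNF8 or shScr were profiled by S9.6 DRIP-seq with and without RNase, and by RNA-seq; input libraries were not used here. Titles of the samples gave groups and replicate numbers. The regions, gene lists and tests were chosen with earlier results of these data known.

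Each library has 1 peak list deposited by the authors, with the fold of each peak over local background (a linear ratio) and -log10 of its p-value and q-value, all at -log10 q of at least 2.00. Peaks of shRNF8 replicates 3 and 4 carry the name stems of replicates 1 and 2 but differ from them. The submitters' processing notes name MACS2 2.2.7.1, Bowtie2 2.2.6 and build hg38. The control used in peak calling is not given in the sources used here. For RNA the deposited table gives raw counts per gene, made with featureCounts from read pairs with no strand option, per the file headers, so reads of a gene and of one that overlaps it, antisense included, cannot be told apart. RNA libraries held 18121181 to 20006954 counts.

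Peaks sharing at least 1 bp were merged. A region's position is that of its highest summit, with gene positions from the count table. Fold and p gave whole-number pileups for at least 99.9% of peaks (tolerance 0.001 in -log10 p), and depth matching rescaled these and kept -log10 p of at least 4. Sequence at summits was planned, but with no genome used here, RefSeq promoter windows were read instead. Of matched promoters, 79.6% had a gene start of the count table within 1000 bp. Counts were tested with edgeR 4.0.16 in R 4.3.3 (filterByExpr, TMM, robust quasi-likelihood, group only, Benjamini-Hochberg) on 14018 genes, of which 2813 had an unadjusted p under 0.05; DESeq2 1.42.0 was an alternative. CPM values are TMM-scaled, and CPM per kb is divided by the table's gene length. Group differences in shares used exact permutation over 15 splits. Scripts were tested on simulated data. Alternatives covered merging, thresholds, depth, windows, filters, scaling and each library left out.

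Named regions were the 8 highest, the 2 highest of each position, the 3 lowest, the 3 highest just outside and up to 5 with an RNase-treated peak. Named genes were RNF8, XRN2, those called with a region (the last 2, WNK2 and RABL6, beyond a limit of 8), those with at least 3 regions, those at named regions and up to 3 per list. Python 3.11.15, NumPy 2.4.6, SciPy 1.17.1, pandas 2.3.3 and matplotlib 3.10.9 were used.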

Additional observations from a re-analysis of the deposited data

Results flagged for a closer look

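In 4 of 56 named regions, those just outside the rule included, 1 of the 4 shRNF8 libraries stood apart by Dixon's test at 95%. That test flags about 1 in 20 groups of normal values that were not selected. Here the same libraries' calls chose the regions, and many were named for their fold. That rate need not hold here, so the 4 regions are only described. In the intergenic region nearest to CAPN15 (chr16:512094-515426) replicate 3 had a fold of 11.9, with the others at 6.46 to 7.19. In the intergenic region nearest to ZC3H18 (chr16:88547849-88548471), which had a peak in an RNase-treated library, replicate 2 had 6.33, with the others at 3.90 to 4.20. In an intron of COL18A1 (chr21:45412498-45414852) replicate 1 had 6.44, with the others at 4.60 to 4.86. At the start of PIK3CD replicate 3 had 7.20, with the others at 3.98 to 4.44. The library that stood apart was not the same in these 4 regions.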

How the results depend on the processing

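The number of only-shRNF8 regions was 233 with a -log10 q of at least 4 asked of shRNF8 peaks alone, 1071 where a peak had to cover 50% of the shared core, 312 with shRNF8 alone depth matched, 1713 on shRNF8 replicates 1 and 2, 9926 on replicates 3 and 4, and 714 to 1548 with 1 library left out, where fewer calls are asked or fewer absences. It stayed within 1.5 times of 537 under the other 5 alternatives (362 to 411). Depth matching of shRNF8 alone, the bar of 1000 bp to an shScr peak, the common stretch and the pairs of replicates were chosen after seeing the data. Gene starts took 25.7% with a window of 2000 bp. With an end window of 1000 bp after the gene, ends took 2.98% and intergenic sequence 14.3%. The RNase difference was below 0 under all alternatives run, in a design that cannot give a p under 0.05 (-0.40 to -0.03 points with 1 library left out), and was -0.47 points in replicates 1 and 2 paired by number (replicate block). DESeq2 called 322 genes higher and 530 lower, 3 and 21 of them with a region. No filter on low counts gave 267 and 381, 2 higher with a region. Counting any gene that overlaps a region gave 2 higher. RNA replicate numbers did not pair the libraries (correlations -0.05, 0.11 and -0.23, and not every library correlated best with its own number), and the replicate block gave 205 higher, 2 of them with a region. With 1 RNA library left out, 17 to 1823 genes were higher and 29 to 2042 lower, 0 to 51 and 2 to 65 of them with a region, the highest each time without shScr replicate 1. No alternative was run for the left-out libraries or the promoter windows. Unknown DRIP depth limits every count.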

Other observations

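Of the only-shRNF8 regions, 2 held miRNA hairpins that RefSeq places inside them. MIR6771 lay in chr16:50290354-50293736, with a mean fold of 6.10 over the 4 shRNF8 libraries. MIR3909 and MIR6069 lay on opposite strands of chr22:35334101-35337100, with a mean fold of 6.01. Members were less crowded than other sets: another region of the same set lay within 20 kb for 20.1% of only-shRNF8, 36.2% of only-shScr and 67.4% of shared regions, sets that also differ in size.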
